A study of Mus musculus with 4 samples.

Results

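The proteasome subunits are described here in young and old intestinal stem cells (ISCs), as the 45 genes among the 52459 listed whose symbol is that of a numbered alpha, beta, ATPase, non-ATPase, activator, inhibitor or assembly chaperone gene (Psma to Psmg). The 3 inducible beta subunits Psmb8, Psmb9 and Psmb10 were left out and are given beside their constitutive counterparts. The rule used names and no measured value, and was set with earlier results of these data known. It gave 16 genes of the 20S core, 17 of the 19S cap, and 12 chaperones or activators. ISCs came from the small intestine of wild-type female C57/Bl6 mice of 2 months (young) or 22 months (old). They were sorted with 6 surface markers besides the exclusion of CD31+ and CD45+ cells, as CD24med, CD166+, CD44high, GRP78low, EPHB2high and EPCAM+ cells. Each age had 2 pools of 5 animals, and 1 full-length RNA library per pool, amplified by SPIA, an isothermal method that copies RNA along the whole transcript. In such bulk libraries, fewer cells of a type and less RNA per cell cannot be told apart.

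The proteasome degrades proteins that carry ubiquitin chains. Its 20S core is a barrel with beta rings, which hold the proteolytic sites, between alpha rings, which gate the entry, and its 19S cap binds ubiquitin, removes it and unfolds the substrate with a ring of ATPases. Dedicated chaperones assemble both parts, other caps such as PA28 and PA200 can replace the 19S cap, and the transcription factor NRF1 (Nfe2l1) raises the transcription of subunit genes when proteasome activity falls. In the intestinal epithelium, which is renewed throughout life from ISCs at the crypt base, protein turnover by this route is part of the cell cycle and of stress responses.

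Between 3852178 and 4593004 counts per library lay outside mitochondrially encoded genes, which took between 62.57% and 65.71% of all counts in young ISCs and between 72.93% and 73.81% in old ISCs. Levels are given as CPM after TMM normalization, that is counts scaled to a common library total with a correction for composition (normalized CPM). With the mitochondrial genes and the loci like ribosomal RNA left out of TMM, the counts of members called, at an unadjusted p under 0.05 and without overlap were the same as those below, and Psma2 had FDR = 0.0228. All 8 ISC markers checked passed the filter on low counts, with a summed level between 2160 and 2460 normalized CPM in the 4 pools. Markers of sorted-out cells were near 0, with at most 7 counts per pool for 3 endothelial genes, at most 2 for 3 fibroblast genes, and Cd79a at 0. Of 8 leukocyte genes only Itgam passed the filter, with 148 and 196 counts at 2 months, against 254 and 252 at 22 months (edgeR's quasi-likelihood test, FDR = 0.0296), while Ptprc, which encodes CD45, had at most 2 counts. Summed Paneth cell markers stood at 883 and 679 normalized CPM in young ISCs and at 1940 and 748 in old ISCs. Summed goblet cell markers stood at 1770 and 2330, and at 2400 and 1880, near the summed level of the ISC markers. Summed enterocyte markers stood at 63.0 and 75.2, and at 259 and 154. Of these lists Fabp1 (FDR = 2.35e-06), Sis (FDR = 3.34e-05) and Defa24 (FDR = 0.0455) were higher at 22 months (edgeR's quasi-likelihood test), as was the tuft marker Dclk1, with 4 counts in each young pool and 42 and 19 in the old pools (FDR = 0.0258). Summed enteroendocrine markers stood at 26.3 in young replicate 1 and between 76.9 and 124 in the other 3 pools. Their part in the results below was not tested.

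Of the 45 genes, 43 passed the filter on low counts (over 5 reads and over 1 CPM in 1 pool or more) and were tested. Both genes that did not pass are known for other tissues. Psma8, the alpha subunit of the testis, had 2 counts in 1 old pool and 0 in the other 3 libraries. Psmb11, the beta subunit of the thymic cortex, had 1 count in 1 young pool and 0 elsewhere. A count of 0 allowed a level of up to between 0.198 and 0.245 normalized CPM (3 counts, counting error only). All other core and cap genes were detected in every pool, with between 42 and 748 counts.

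Psma2, an alpha ring subunit, was the single member that changed with age by the quasi-likelihood test. It had 426 and 525 counts in the young pools and 629 and 592 in the old pools, or 29.3 and 34.7 against 47.5 and 48.4 normalized CPM. The ages did not overlap, and the old pools differed little from each other. Psma2 (GRCm38, chromosome 13, 14613240 to 14674236, + strand) rose by 0.58 on the log2 scale (SE 0.14, 95% interval 0.29 to 0.87, edgeR's quasi-likelihood test, FDR = 0.0311). The call was lost with offsets for GC content and length (log2 fold change 0.44, FDR = 0.137), without young replicate 1 (0.47, FDR = 0.356) and in DESeq2 (0.58, FDR = 0.0501). Without a correction for library composition, on total counts, the log2 fold change was 0.10 (FDR = 0.641), beside a median of -0.50 over all genes.

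The promoters of 3 members follow as a description, picked by their place in the results. Psma2 is the called member, Psmc6 the ATPase gene with the lowest p in the 19S cap, and Psmb6 the member of the 20S core with the lowest log2 fold change. Each runs from 250 bases before to 50 bases after the annotated start (RefSeq, GRCm38.p6), in the direction of transcription. Capitals mark CCAAT, the letters bound by NF-Y, in Psma2, and TGACNNNGC, the core of the antioxidant response element (ARE) bound by NRF1 and NRF2, in the other two, where Psmc6 holds it on the opposite strand.
Psma2 (chr13:14612992-14613291, + strand): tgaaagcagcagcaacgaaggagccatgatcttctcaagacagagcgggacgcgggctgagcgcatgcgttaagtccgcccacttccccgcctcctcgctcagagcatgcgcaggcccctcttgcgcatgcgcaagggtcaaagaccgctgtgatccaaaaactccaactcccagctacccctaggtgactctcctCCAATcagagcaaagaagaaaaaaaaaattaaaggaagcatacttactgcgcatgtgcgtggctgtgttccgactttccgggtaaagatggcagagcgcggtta
Psmc6 (chr14:45329574-45329873, + strand): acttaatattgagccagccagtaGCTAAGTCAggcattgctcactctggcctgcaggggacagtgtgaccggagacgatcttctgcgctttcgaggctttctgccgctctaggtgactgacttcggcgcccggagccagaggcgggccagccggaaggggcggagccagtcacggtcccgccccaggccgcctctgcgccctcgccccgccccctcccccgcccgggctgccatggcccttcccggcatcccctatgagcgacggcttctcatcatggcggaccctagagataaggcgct
Psmb6 (chr11:70525107-70525406, + strand): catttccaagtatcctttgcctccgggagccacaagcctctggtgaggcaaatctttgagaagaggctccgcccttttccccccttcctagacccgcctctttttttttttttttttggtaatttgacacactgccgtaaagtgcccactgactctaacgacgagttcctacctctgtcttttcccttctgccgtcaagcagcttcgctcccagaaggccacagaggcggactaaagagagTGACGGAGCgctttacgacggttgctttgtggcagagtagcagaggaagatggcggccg
The CCAAT letters of Psma2 began at position -54 from the start, and the ARE core of Psmb6 lay directly before the start, from -9.

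Across the 43 members tested, most log2 fold changes were small and above 0, and few members had a low p. At FDR under 0.05, 1 of 43 members was called (2.33%), against 2.26% of all 13692 genes tested (1.63% higher and 0.628% lower in old ISCs), so the share of members called was near the background. At an unadjusted p under 0.05 there were 8 members (18.6%), against 16.9% of all genes in either direction. All 8 were higher in old ISCs, where the share of all genes was 9.26% in that direction and 7.65% in the other. The old pools were both above the young pools for 15 members (34.9%), against 24.0% of all genes, and below them for 4 members, Psmb6, Psmd11, Psmd3 and Psme3, against 23.6% of all genes. The log2 fold change was above 0 for 32 of 43 members (74.4%) and for 49.5% of all genes. Their median log2 fold change was 0.14, beside -0.0049 for all genes, and was 0.08 with offsets for GC content and length and 0.21 without young replicate 2. On total counts, where the median of all genes was -0.50, that of the members was -0.35, or 0.14 above it. All members were measured in the same 4 libraries, so these are not counts over independent observations.

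**Figure D1:**
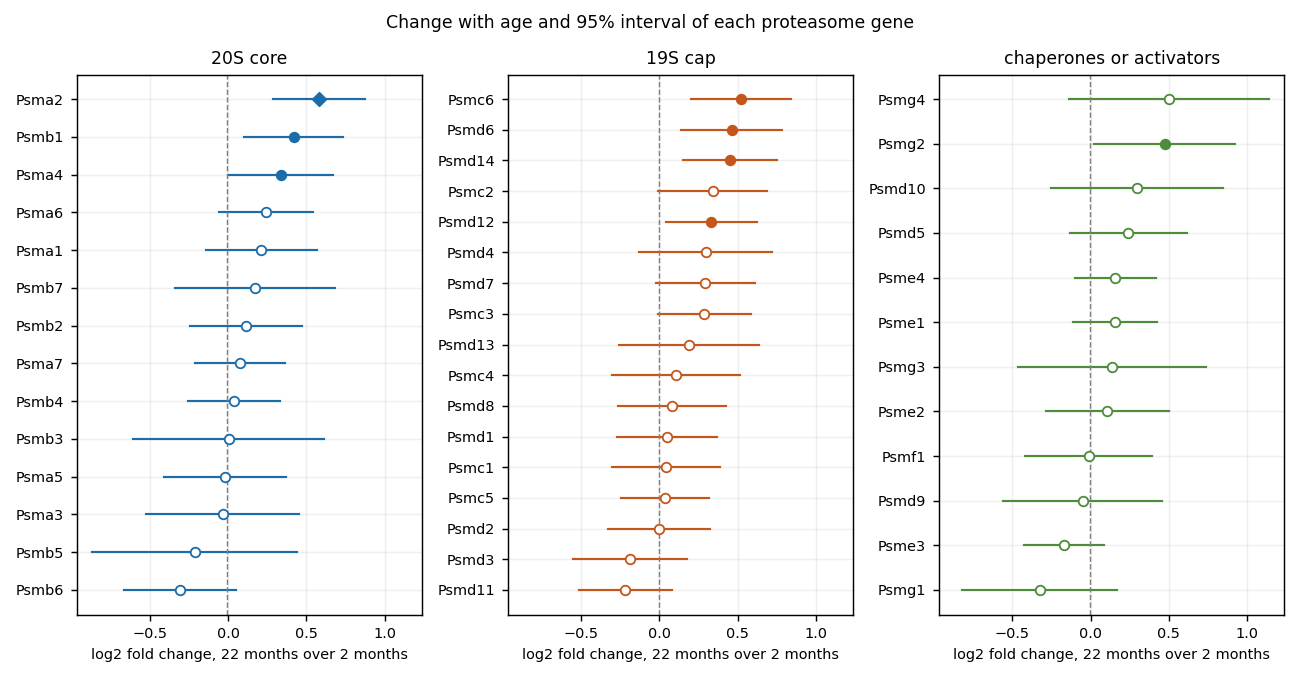
Log2 fold change (22 months minus 2 months, TMM-normalized) of the 43 members tested by class, with 95% intervals from edgeR's quasi-likelihood test on 2 pools per age. The diamond marks Psma2 at FDR under 0.05, filled points an unadjusted p under 0.05, and the dashed line the median of all genes tested (-0.0049); 32 of the 43 points lie above 0, and 42 of the 43 intervals lie within a 2-fold change.

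The precision of single members sets how small a difference could be seen. The standard error of the log2 fold change lay between 0.12 and 0.31. The median difference between pools of the same age was 0.15 on the log2 scale, and the median size of the log2 fold change with age was 0.19. These medians were 0.11 within an age and 0.22 with age in the 19S cap, 0.13 and 0.19 in the 20S core, and 0.23 and 0.17 in the chaperones and activators. The value with age compares means of 2 pools and the value within an age compares single pools, so they are set side by side as a description. For 42 of 43 members the 95% interval lay within a 2-fold change in either direction, and for 21 within a 1.5-fold change. Psmg4, a chaperone of the 20S core with between 48 and 69 counts, was the exception at 2-fold, with an upper bound of 1.14 on the log2 scale.

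In the 20S core, alpha ring genes had a higher median log2 fold change than beta ring genes, 0.21 for 7 genes against 0.04 for 7 genes, and the difference between the rings was not tested. The median of the 14 core genes was 0.09, and 10 of them had a log2 fold change above 0 (71.4%, against 49.5% of all genes). The median was 0.05 without young replicate 1, 0.16 without young replicate 2 and 0.04 with offsets for GC content and length. Besides Psma2, the alpha gene Psma4 and the beta gene Psmb1 had an unadjusted p under 0.05, so that 3 of 14 core genes did (21.4%, against 16.9% of all genes). Psmb1, a structural beta subunit without a catalytic site, had 20.2 and 21.3 normalized CPM at 2 months, against 27.2 and 28.3 at 22 months. Both ages were tight and did not overlap, with a log2 fold change of 0.42 (SE 0.15, edgeR's quasi-likelihood test, FDR = 0.163), which did not pass the threshold. Psma4 had 21.4 and 18.1 normalized CPM at 2 months, against 23.9 and 25.9 at 22 months (log2 fold change 0.34, SE 0.16, edgeR's quasi-likelihood test, FDR = 0.295, and 0.22 without young replicate 2). Psma4 overlaps a gene on the opposite strand, AY074887, over 114 bases, and the strand setting of the counting is not given in the sources used here, so reads of the pair cannot be told apart.

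The 3 catalytic subunits did not pass the test and did not point one way. Psmb6, the caspase-like subunit, had 21.2 and 22.2 normalized CPM at 2 months, against 15.6 and 19.5 at 22 months. Both old pools were below both young pools, with a log2 fold change of -0.31 (SE 0.17, 95% interval -0.66 to 0.05, edgeR's quasi-likelihood test, FDR = 0.376). The value was -0.15 without old replicate 1 and -0.48 without old replicate 2. It was -0.79 on total counts (FDR = 0.00241), or -0.30 relative to the median of all genes. On that scale 33.1% of all genes were called lower. Psmb7, the trypsin-like subunit, had 5.65 and 7.67 at 2 months, against 7.40 and 7.61 at 22 months, and the ages overlapped (log2 fold change 0.17, SE 0.24, FDR = 0.779). Psmb7 was at -0.03 without young replicate 1, where Psmb5 and Psmb6 were also below 0. The exons of Psmb7 overlap Nek6 on the opposite strand over 405 bases. Psmb5, the chymotrypsin-like subunit and the main target of bortezomib, had 4.00 and 4.50 at 2 months, against 3.17 and 4.17 at 22 months (log2 fold change -0.21, SE 0.31, FDR = 0.786). Of its 50-nt stretches, 54.1% also occur in transcripts of other genes, among them the pseudogene Psmb5-ps, which had 0 counts in every pool, and its level is uncertain because the treatment of such reads is not given in the sources used here.

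The inducible subunits that replace these 3 in the immunoproteasome were measured in the same libraries. Psmb9, the counterpart of Psmb6, had 10.4 and 7.21 normalized CPM at 2 months, against 12.9 and 16.4 at 22 months. Its old pools lay above its young pools, with a log2 fold change of 0.73 (SE 0.22, edgeR's quasi-likelihood test, FDR = 0.0904), and it overlaps Tap1 on the opposite strand over 212 bases. It passed the threshold with no filter (FDR = 0.0423), in the likelihood ratio test (FDR = 0.0444) and with the replicate number as a block (FDR = 0.0238). The log2 fold change of Psmb9 was 1.02 without young replicate 1 and 0.49 without young replicate 2. It was 0.90 without old replicate 1 and 0.56 without old replicate 2. Psmb8, the counterpart of Psmb5, had 4.27 and 5.43 against 4.91 and 7.44 normalized CPM (log2 fold change 0.34, SE 0.28, FDR = 0.577). Psmb10, the counterpart of Psmb7, had 18.3 and 15.4 against 13.4 and 21.3 (log2 fold change 0.04, SE 0.20, FDR = 0.943). The ages overlapped for both.

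In the 19S cap, 14 of 17 genes had a log2 fold change above 0, with a median of 0.19, and none passed FDR under 0.05, against 2.26% of all genes. At an unadjusted p under 0.05 there were 4 cap genes, Psmc6, Psmd6, Psmd12 and Psmd14 (23.5%, against 16.9% of all genes), all higher in old ISCs, the direction of 9.26% of all genes. The 6 ATPase genes, Psmc1 to Psmc6, had a median of 0.20 and all 6 values above 0, from 0.04 to 0.52, and the 11 non-ATPase genes had a median of 0.19. Without young replicate 1 the median of the cap was 0.09, and without young replicate 2 it was 0.28. On total counts it was -0.29, or 0.20 above that of all genes on the same scale.

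Psmc6 had 19.15 and 18.99 normalized CPM at 2 months, against 28.1 and 26.7 at 22 months. Pools of one age differed by less than the ages did, with a log2 fold change of 0.52 (SE 0.15, edgeR's quasi-likelihood test, FDR = 0.083). Psmc6 did not pass the threshold in that test, and passed it in edgeR's likelihood ratio test (FDR = 0.0444) and without old replicate 2 (FDR = 0.049). With offsets for GC content and length it was at 0.37 (FDR = 0.259). Psmd14, the metalloprotease that removes ubiquitin from substrates as they enter, had 25.6 and 26.4 at 2 months, against 37.5 and 33.8 at 22 months. Its ages did not overlap either, with a log2 fold change of 0.45 (SE 0.14, edgeR's quasi-likelihood test, FDR = 0.109). It passed the threshold without old replicate 2 (FDR = 0.0393), and was at 0.28 with offsets for GC content and length (FDR = 0.371). Psmd6, a scaffold subunit of the lid, had 19.7 and 20.8 against 29.2 and 26.5 (log2 fold change 0.46, SE 0.15, FDR = 0.127). Psmd11, another lid subunit, stood on the other side of 0, with 33.0 and 33.3 at 2 months, against 28.7 and 28.4 at 22 months (log2 fold change -0.22, SE 0.14, FDR = 0.463). Its ages did not overlap, as in Psmd3, and its interval reached from -0.51 to 0.08. The ubiquitin receptor Psmd4 had 8.96 and 10.8 against 12.4 and 11.9 normalized CPM, with no overlap between the ages, while the large base subunits Psmd1 and Psmd2 had overlapping ages.

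**Figure D2:**
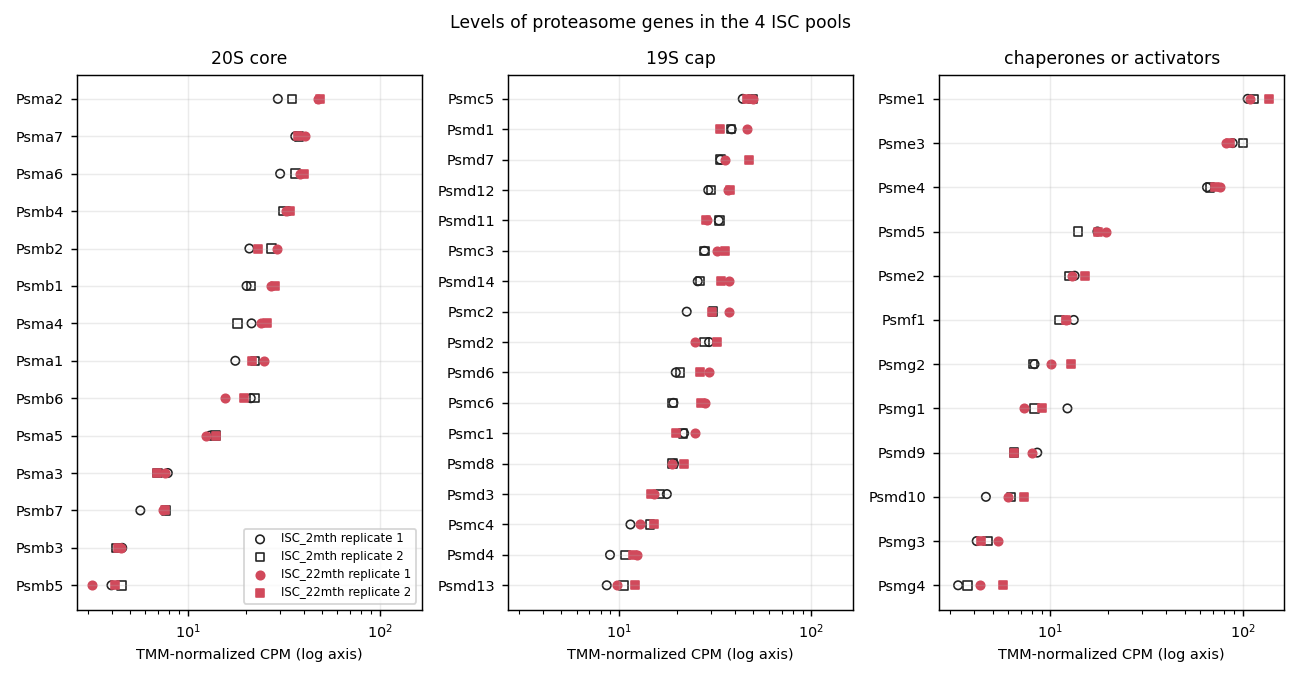
Level of each of the 43 members tested in every pool, in normalized CPM on a log axis, by class, with open symbols for 2 months, filled symbols for 22 months, circles for replicate 1 and squares for replicate 2. The ages overlap for most members, and both old pools lie above the young ones for 15, including Psma2, Psmb1, Psmc6 and Psmd14.

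Among the 12 chaperones and activators, 8 had a log2 fold change above 0 (66.7%, against 49.5% of all genes), with a median of 0.15 (0.09 with offsets for GC content and length). None passed FDR under 0.05, against 2.26% of all genes, and 1, Psmg2, had an unadjusted p under 0.05 (8.33%, against 16.9% of all genes). The 4 chaperones of the 20S core, Psmg1 to Psmg4, differed among themselves, with log2 fold changes from -0.32 to 0.50, and both ends moved when 1 pool was left out. Psmg1 was at -0.01 without young replicate 1, and Psmg4 at 0.30 without old replicate 2. Psmg2, which forms a dimer with Psmg1 that assembles the alpha ring, had 8.27 and 8.14 normalized CPM at 2 months, against 10.1 and 12.8 at 22 months (log2 fold change 0.47, SE 0.21, edgeR's quasi-likelihood test, FDR = 0.271, and 0.29 without old replicate 2). Its partner Psmg1 had 12.3 and 8.27 against 7.33 and 9.08 (log2 fold change -0.32, SE 0.24, FDR = 0.522), and its young pools differed from each other by more than the ages did. Psmg4, which pairs with Psmg3, had 3.31 and 3.71 against 4.31 and 5.64 (log2 fold change 0.50, SE 0.30, FDR = 0.429). The 3 chaperones of the 19S base, Psmd5, Psmd9 and Psmd10, had a median of 0.24, and none had an unadjusted p under 0.05.

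Of all members, the activators Psme1, Psme3 and Psme4 held the highest counts. Psme1, which forms the PA28 ring with Psme2, had 1543 and 1739 counts at 2 months, against 1455 and 1673 at 22 months, or 106 and 115 against 110 and 137 normalized CPM. The ages overlapped, with a log2 fold change of 0.16 (SE 0.13, edgeR's quasi-likelihood test, FDR = 0.574). Psme2 had 13.4 and 12.6 against 12.9 and 15.1 (log2 fold change 0.11, SE 0.19, FDR = 0.823). Of its 50-nt stretches, 28.3% also occur in transcripts of other genes such as Psme2b. Psme3, the nuclear PA28 gamma, had 88.9 and 100 at 2 months, against 82.4 and 85.7 at 22 months, and Psme4, the PA200 cap that binds acetylated histones, had 65.3 and 67.6 against 76.4 and 72.0. In these deeply counted genes the ages did not overlap, Psme3 with old pools lower (log2 fold change -0.17, SE 0.12, FDR = 0.513, and -0.08 without young replicate 2) and Psme4 with old pools higher (0.16, SE 0.12, FDR = 0.546). Neither passed the test, and for all 4 activators the 95% interval lay within a 1.5-fold change. Psmf1, the inhibitor PI31, had a log2 fold change of -0.01.

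Summed over the genes of a class, the core and the cap were 1.14-fold and 1.13-fold as high in old as in young ISCs, and the chaperones and activators 1.05-fold. The 20S core summed to 265 and 289 normalized CPM in the young pools and to 315 in both old pools (277 ± 16.4 against 315 ± 0.399, mean ± SD, n = 2 pools). The 19S cap summed to 410 and 430 in the young pools and to 479 and 473 in the old pools (420 ± 14.2 against 476 ± 4.59, n = 2). In both classes the old pools lay above the young pools, and 2 pools against 2 are too few for an exact permutation test to pass the threshold. The chaperones and activators summed to 346 and 358 against 354 and 385, and the ages overlapped. On total counts the log2 ratio of the 3 sums was -0.30, -0.31 and -0.42, below 0 for every class. As a share of the counts outside mitochondrially encoded genes, all members together took 0.34% and 0.354% at 2 months, against 0.363% and 0.372% at 22 months.

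**Figure D3:**
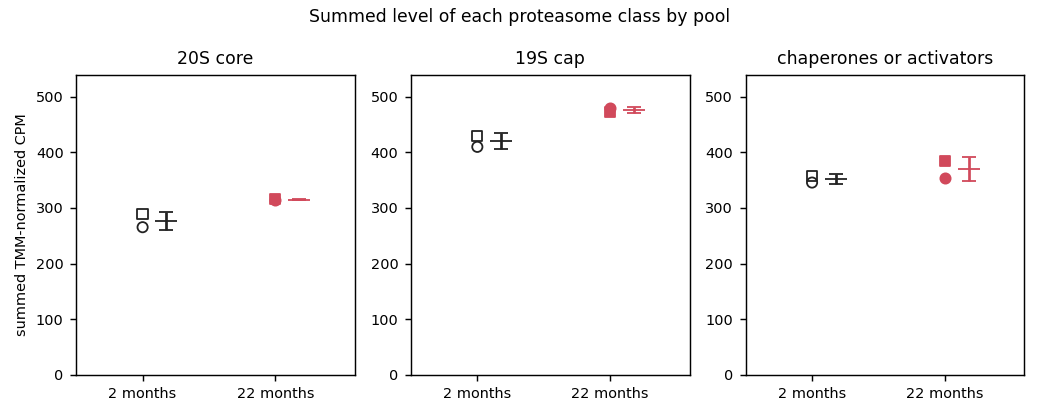
Summed normalized CPM of the 20S core, the 19S cap, and the chaperones and activators at 2 and 22 months, with circles for replicate 1, squares for replicate 2, and bars for the mean ± SD of 2 pools. Old pools lie above young pools for the core and the cap, and the ages overlap for the third class. On total counts all 3 sums were lower in old ISCs, but by less than the median of all genes (-0.50).

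Subunits that stand in equal number in the complex differed widely in transcript level per exonic length. In young ISCs the 14 core genes ran from 1.90 normalized CPM per kb for Psma3 to 26.9 for Psma6, a 14.2-fold range around a median of 8.53. The 17 cap genes ran from 2.83 for Psmd13 to 33.5 for Psmc5, an 11.8-fold range around a median of 6.26, so medians of core and cap lay close to each other beside the range within each. The 12 chaperones and activators ran from 1.04 for Psmd9 to 50.1 for Psme1, a 48.2-fold range. This low end is uncertain, since Psmd9 overlaps Gm26745 on the opposite strand over 1849 bases and 24.9% of its 50-nt stretches also occur in transcripts of other genes. The low ends of core and cap carry such limits too. For Psma3 15.4% of these stretches are shared, and for Psmd13 8.23%, and Psmd13 overlaps Sirt3 on the opposite strand over 342 bases. With the length of the longest protein-coding transcript, chosen after seeing the data, the ranges were 12.3-fold, 7.38-fold and 34.4-fold. Psma3, Psmd13, Psmd9, Psmc5 and Psme1 were at the same ends on both lengths, and the highest core gene was then Psma7. Ranges in old ISCs were alike, at 17.2-fold, 11.4-fold and 55.9-fold on exonic length.

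The members with the lowest p had transcripts of low GC content. The 8 members with an unadjusted p under 0.05 had an exonic GC content between 40.57% and 46.96%, beside a median of 49.57% over the 43 members, whose range was 40.57% to 57.0%. Psma2 had the lowest GC content of all members tested, followed by Psmd14 with 40.76% and Psmc6 with 41.51%. Over the 43 members the log2 fold change had a Spearman correlation with GC content of -0.39 (Pearson -0.437), and over 13236 genes of -0.225 (Pearson -0.152). These are across genes that share the same 4 libraries and are not independent. With offsets for GC content and length the values were -0.185 and -0.0315 (Spearman), 0 members passed FDR under 0.05 (against 1.34% of all genes), and 5 had an unadjusted p under 0.05 (11.6%, against 13.9%). The offsets change GC content and length together, and the part of GC content alone was not tested.

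**Figure D4:**
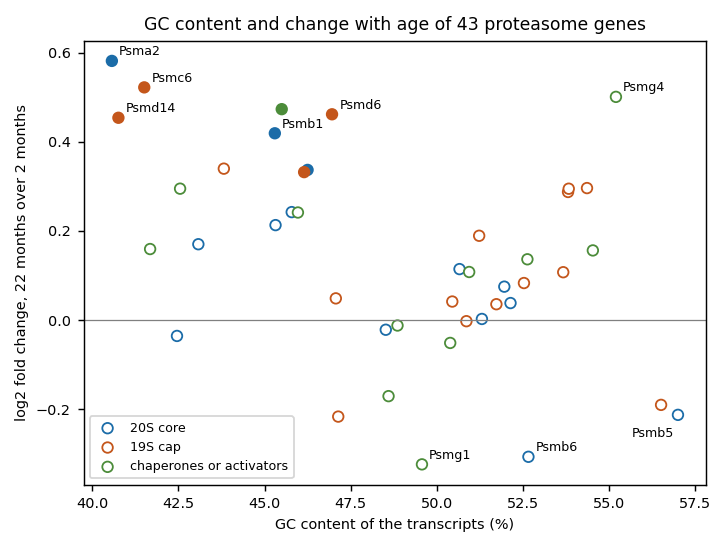
Log2 fold change (22 months minus 2 months, TMM-normalized) against exonic GC content in percent, for the 43 members tested, with filled points for an unadjusted p under 0.05. The filled points lie between 40.57% and 46.96% GC, all above 0 on the log2 axis, and Psma2 is the leftmost.

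RefSeq promoters were at hand for 37 of the 45 members. The letters TGACNNNGC on either strand stood in 6 of the 37 (16.2%), Psmb5, Psmb6, Psmc6, Psmd9, Psmd12 and Psme4, and in 12.4% of all 32851 promoters. Per gene, it was 14.0% of the 27025 genes with a promoter and 17.0% of the 9438 of these that were tested. The median log2 fold change was 0.05 for these 6 and 0.11 for 30 members without the letters. The group thus held Psmc6 and Psmb6, which stood at opposite ends of the range. CCAAT on either strand stood in 13 of the 37 (35.1%), against 37.4% of all promoters and, per gene, 41.1% of the 27025 genes with a promoter and 43.1% of the 9438 of these that were tested. The 12 of them that were tested had a median log2 fold change of 0.23, against 0.10 for 24 members without it. Neither difference was tested, and a match of letters is not a site of binding.

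Other genes of the pathway were taken as a list of 35 ubiquitin, shuttle, cap-associated and regulatory genes. Of the 33 tested, 1 passed FDR under 0.05 (3.03%, against 2.26% of all genes), and 3 had an unadjusted p under 0.05 (9.09%, against 16.9%), all higher in old ISCs. The median was 0.11, and 22 of 33 had a log2 fold change above 0 (66.7%, against 49.5%). The old pools lay above the young pools for 12 (36.4%, against 24.0%) and below them for 1, against 23.6% of all genes. The gene that passed was Nfe2l2, which encodes NRF2, the regulator of the antioxidant response, and which the study singled out on these samples, so its call is not independent evidence. It had 146 and 177 normalized CPM at 2 months, against 218 and 245 at 22 months, and rose by 0.52 on the log2 scale (SE 0.12, edgeR's quasi-likelihood test, FDR = 0.0298). As for Psma2, the call on Nfe2l2 was lost without young replicate 1 (0.39, FDR = 0.391), with offsets for GC content and length (0.42, FDR = 0.112) and on total counts (0.04, FDR = 0.841). The other 2 genes of low unadjusted p, named after their values were seen, were Faf1, a cofactor of the unfoldase VCP, with 23.2 and 22.4 against 29.8 and 34.3 (log2 fold change 0.49, SE 0.15, FDR = 0.0972), and Sem1, a small subunit of the 19S lid, with 12.1 and 13.2 against 15.3 and 19.3 (log2 fold change 0.45, SE 0.19, FDR = 0.222). Their pools did not overlap between the ages. Nfe2l1, the regulator of subunit genes, had 27.8 and 35.3 against 30.1 and 27.6, and the ages overlapped (log2 fold change -0.13, SE 0.15, FDR = 0.722). Pomp, the chaperone that completes the 20S core, had 46.7 and 49.2 against 56.8 and 48.2, also with overlap (0.13, SE 0.13, FDR = 0.668).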

How the data were processed

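RNA of sorted ISCs was sequenced in 4 full-length (SPIA) libraries, 2 pools of 5 animals per age. The authors trimmed single-end reads (Trimmomatic 0.30), aligned them with STAR 2.4.2a to GRCm38, counted reads in exons of GENCODE vM15 genes with featureCounts, and deposited raw counts per gene, neither normalized nor filtered. Strand setting and treatment of reads with several positions are not given in the sources used here. Libraries held between 11662654 and 15975698 counts.

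The filter kept 13692 of 52459 genes, those that in 1 pool or more had over 5 reads and over 1 CPM. Ages were compared with edgeR 4.0.16 (R 4.3.3; TMM, glmQLFit, glmQLFTest, no covariate), with Benjamini-Hochberg adjustment over all genes kept (FDR, threshold 0.05). Fold changes are 22 months minus 2 months. With 2 pools per age, p-values rest on the spread between these pools, which the quasi-likelihood fit moderates for each gene toward a trend over all genes. The common biological coefficient of variation was 0.139. Alternatives used limma 3.58.1 (voom with sample quality weights), DESeq2 1.42.0, other scalings and filters, offsets for GC content and length (lowess, span 0.3), the replicate number as a block, and leaving out each pool.

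Members and lists were chosen with earlier results of these data known. Genes named with fold changes were members at FDR under 0.05, in each class the 3 of lowest p and those of highest and lowest fold change, the catalytic subunits and their inducible counterparts, the activators, Nfe2l1, Nfe2l2 and Pomp, and pathway genes at FDR under 0.05. Psmf1 and members named by levels alone were added after their values were seen. Positions, lengths and GC content came from GENCODE vM21 (GRCm38), matched by symbol for 47976 genes. Of the pathway list, Ecpas was listed as AI314180 and Paaf1 was not analysed here. Some items are not reported here. Protein sequences were not used here. The fits were tested on simulated counts.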

Additional observations from a re-analysis of the deposited data

How the results depend on the processing

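Log2 fold changes of the 23 genes named by the rule were recomputed under 14 other settings. Of these values, 284 kept their direction and their side of the FDR threshold of 0.05, 13 kept the direction and passed it, 7 kept the direction and no longer passed it, and 18 changed sign. On total counts, which include the mitochondrial counts, 12 changed sign: Pomp was at -0.36, Psma4 at -0.16, Psmb1 at -0.0697, Psmb7 at -0.31, Psmb8 at -0.14, Psmb10 at -0.45, Psmd6 at -0.0288, Psmd14 at -0.0374, Psme1 at -0.33, Psme2 at -0.38, Psme4 at -0.33 and Psmg2 at -0.0149. Leaving out each pool, the log2 fold change ranged from -0.29 to 0.0492 for Nfe2l1, from -0.0319 to 0.41 for Psmb7, from -0.32 to 0.34 for Psmb10, from -0.008 to 0.31 for Psme1 and from -0.0032 to 0.22 for Psme2. The sign changed without young replicate 2 for Nfe2l1 and Psmb10, without young replicate 1 for Psmb7, and without old replicate 2 for Psmb10, Psme1 and Psme2. None of the genes that changed sign passed the threshold with TMM normalization and all pools. On total counts Nfe2l1 (-0.61, FDR = 0.00631), Psmb6 (-0.79, FDR = 0.00241), Psmd11 (-0.71, FDR = 0.00202), Psme3 (-0.66, FDR = 0.00118) and Psmg1 (-0.82, FDR = 0.0128) passed it as lower in old ISCs. On that scale 33.1% of all genes were called lower.

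Medians on total counts were -0.35 for all members, -0.39 for the 20S core, -0.29 for the 19S cap, -0.34 for chaperones and activators and -0.50 for all genes. The log2 ratios of the class sums were -0.30, -0.31 and -0.42, the old pools lay above the young pools for 1 member (2.33%, against 3.1% of all genes) and below them for 31 (72.1%, against 68.7%), 0 members were called higher (against 0.701%) and 10 lower (23.3%, against 33.1%), and at an unadjusted p under 0.05 there were 0 higher (against 0.993%) and 20 lower (46.5%, against 44.9%). Members called higher were 2 in edgeR's likelihood ratio test (4.65%, against 2.74% of all genes). They were 0 in DESeq2 (against 1.07%) and 0 with offsets for GC content and length (against 1.0%). At an unadjusted p under 0.05, 5 members (11.6%) were higher in DESeq2, against 5.97% of all genes, and 5 with the offsets, against 7.95%. Leaving out each pool, between 0 and 3 members were called higher (0 without young replicate 1, where Psma2 was at FDR = 0.356, Psma2 and Psmd7 without old replicate 1, and Psma2, Psmc6 and Psmd14 without old replicate 2), against 0.94% to 3.51% of all genes. At an unadjusted p under 0.05 between 4 and 11 were higher, 4 without young replicate 1 (9.3%, against 5.9% of all genes), 6 without young replicate 2 (14.0%, against 7.48%), 11 without old replicate 1 (25.6%, against 9.52%) and 6 without old replicate 2 (14.0%, against 9.68%), and between 0 and 1 were lower, against 3.89% to 7.95% of all genes. An age left with 1 pool was assumed to vary like the other.

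Over all genes, 223 were called higher and 86 lower. These counts were 96 and 4536 on total counts, 357 and 197 with no filter, 375 and 236 in the likelihood ratio test, 147 and 50 in DESeq2, and 137 and 47 with the offsets, and leaving out each pool they ranged from 123 to 478 and from 28 to 250. Replicates of the same number did not deviate together (r = -0.0189 over 9183 genes), and the number was not used as a pairing in the main comparison. This value cannot exclude that same-numbered pools were handled together. With the replicate number as a block, Psma2 remained the 1 member called (FDR = 0.0057), or 2.33% of members, against 2.97% of all genes called higher. Psmb9 passed the threshold (FDR = 0.0238), and 407 genes were called higher and 217 lower. The cause of these shifts was not tested. Depth limited the members with few counts most, such as Psmb5, Psmb3, Psmg3 and Psmg4. The protein comparison of catalytic subunits was not run.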

Other observations

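Of the other genes with a name that starts like that of a subunit, the pseudogenes Psmb5-ps, Psmb6-ps and Psmb6-ps2 had 0 counts in every pool, and Psmb7-ps2 had 1 count in 1 old pool. Psme2b, which shares sequence with Psme2, had 11 and 5 counts at 2 months, against 9 and 8 at 22 months. Psmc3ip, which is no subunit but encodes a partner of the recombinase DMC1 in meiosis, had 76 and 86 counts at 2 months, against 56 and 69 at 22 months. Its ages overlapped in normalized CPM (log2 fold change -0.15, SE 0.28, edgeR's quasi-likelihood test, FDR = 0.834).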
